A study of Mus musculus with 6 samples.

Results

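The genes of the CD3 complex and of proximal T cell receptor (TCR) signalling were examined in regulatory T cells (Tregs) isolated from neonatal mice at 2 sites, the skin and its draining lymph nodes (SDLN). There were 10 of them among the 49315 genes in the count table: Cd4, Cd3e, Cd3d, Cd3g, Cd247, Lck, Zap70, Lat, Prkcq and Cd5. They were chosen by name for their role in TCR signalling, through the GENCODE M21 symbols of the Ensembl identifiers, and all 10 were found and tested.

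The mice carried Foxp3-GFP, a reporter that marks cells transcribing Foxp3, the lineage-defining factor of Tregs, and were 9 days old (P9). Live CD45+ CD4+ Foxp3-EGFP+ cells were sorted from both tissues, so both groups carry the reporter, and the labels name no treatment. Each sample pooled 3 biological replicates, and each group had 3 libraries, named A, B and C here. The methods of the study speak of 3 pooled samples in all and of both tissues from 9-day-old mice, which may mean that one pool of mice gave a skin and an SDLN sample, but neither they nor the labels say so or which samples these would be, and the tissue label of the SDLN samples also reads Skin, so the groups rest on the sample titles. The comparison asks how Tregs of neonatal skin differ from those of the nodes that drain it.

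The TCR alpha and beta chains have no signalling tails of their own. They are held in a complex with the CD3 epsilon, delta and gamma chains (Cd3e, Cd3d, Cd3g) and the CD3 zeta chain (Cd247), whose tails carry tyrosine activation motifs. Lck, a kinase held at the CD4 co-receptor, phosphorylates these motifs, ZAP-70 docks on them, and ZAP-70 in turn phosphorylates the membrane scaffold LAT. Protein kinase C theta, encoded by Prkcq, carries the signal towards NF-kB, and CD5 dampens it. Tregs need TCR signals to develop in the thymus and to keep up their suppressive programme in tissues.

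Skin libraries held 3748669, 11741784 and 9033442 counts (A, B and C) and SDLN libraries 116158706, 72799278 and 47243498, and 2911 to 5317 genes reached 1 CPM (1 count in 1000000 counts of the library) in skin against 12397 to 13002 in SDLN. Skin A and C went against their label at the gene that defined the sort. Foxp3 had 0, 330 and 1 counts in the skin libraries, in the order A, B and C, while the SDLN libraries had 12208, 10133 and 1788. Ptprc, which encodes CD45, was at 1110, 1908 and 2816 CPM in skin and 2116, 2820 and 1623 CPM in SDLN. The 18 macrophage and dendritic cell markers summed to 34722 to 60968 CPM in skin and 442 to 778 CPM in SDLN, with 15 of the 17 tested called higher in skin, and skin A had the highest sum. Marker sums of CD8 T cells and natural killer cells, which use Cd247, Lck, Zap70 and Lat too, were 1112 to 1403 CPM in skin and 265 to 296 CPM in SDLN. That difference came from Nkg7, Gzmb and, in skin A, Klrd1, while Cd8a, Cd8b1, Ncr1, Klrb1c, Eomes and Prf1 were at 0 in every skin library. Markers of gamma delta T cells, which use the same CD3 chains, summed to 0, 0 and 117 CPM in skin, all of it Trdc in skin C, and to 17.2 to 22.6 CPM in SDLN. Erythroid markers summed to 137, 263 and 842 CPM in skin and 59.1 to 122 CPM in SDLN, mast cell and granulocyte markers to 226 CPM in skin A and 0 in skin B and C, and fibroblast markers to 90.6 CPM in skin B and under 1 CPM in the others, with none of the 3 lists called higher in skin at any gene. B cell markers summed to 61.0 to 91.4 CPM in SDLN against 0 to 2.66 CPM in skin with 4 of 5 tested called higher in SDLN. Endothelial markers summed to 142 to 176 CPM in SDLN and 0.511 to 25.9 CPM in skin with 1 of 2 called higher in SDLN. Nearly all of that SDLN sum was Pecam1 (173, 171 and 139 CPM), which was not called. The called gene was Egfl7 (1.17 to 3.28 CPM in SDLN), and the sum of skin A was Kdr alone. Keratinocyte and melanocyte markers were at 0 in every skin library and summed to under 10 CPM in each SDLN library, where Krt10 and Pmel were called higher. The part of these other cells in the levels below was not tested, and in bulk RNA fewer T cells and less RNA per T cell cannot be told apart.

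Mean CPM of all 10 genes was lower in skin than in SDLN Tregs, although upper quartile scaling turned the fitted direction of Cd3d, Cd3g, Cd247, Lck and Cd5. The genes fell into 4 kinds by the skin libraries that read them. Cd3d, Cd3g, Cd247 and Lck were read in every skin library, at 0.330 to 0.614 times their SDLN mean. Cd3e, Zap70, Lat and Cd5 were read in skin B and C and were at the floor in skin A, and Cd4 was read in skin B alone. Prkcq was at the floor in all 3 skin libraries, with 3 counts in the group against 68067 in SDLN. The floor is 3 counts in a library, which was 0.800, 0.255 and 0.332 CPM in skin A, B and C. Prkcq was the 1 gene of the 10 called between the groups, higher in SDLN as were 45.3% of the 13572 genes tested, and none was called higher in skin, where 1.04% of all genes were.

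**Figure D1:**
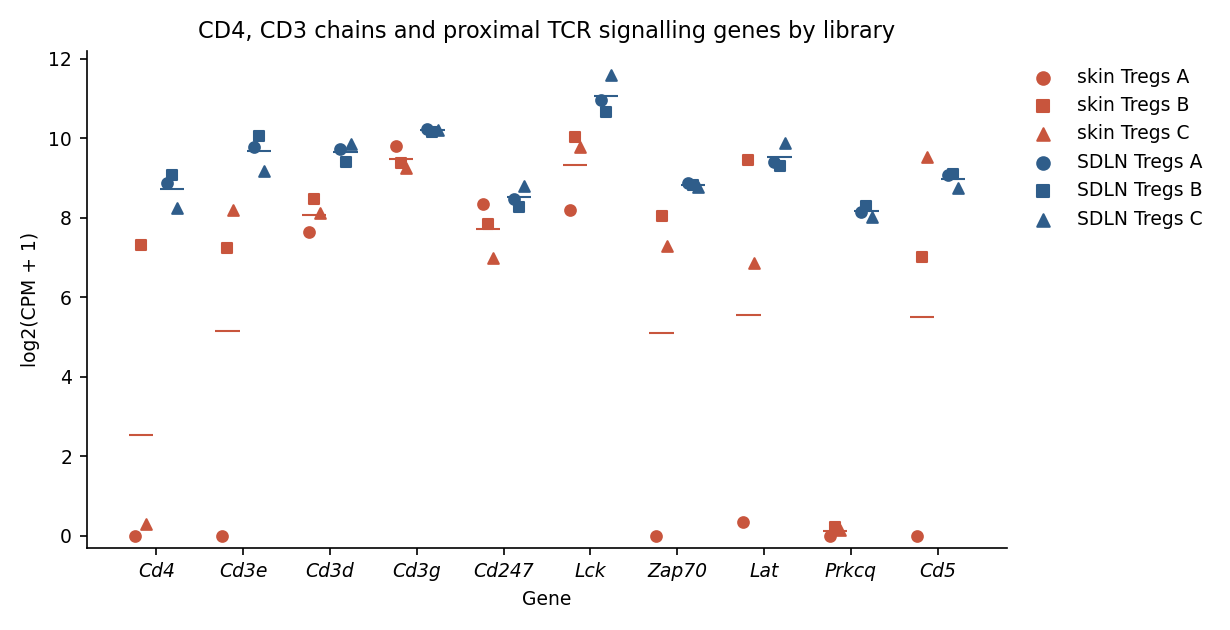
The level of each gene (x axis) in each library as log2(CPM + 1) (y axis), with skin Tregs in red and SDLN Tregs in blue, a marker shape for each library letter and a line at the mean of each group. SDLN libraries lie close together at each gene, while skin A is at or near 0 for Cd4, Cd3e, Zap70, Lat, Prkcq and Cd5 and all 3 skin libraries are near 0 for Prkcq.

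Cd3g, Cd3d and Cd3e lie side by side on chromosome 9, and the 250 bases before the RefSeq start of each are shown because these neighbours differed in how skin libraries read them. The window of Prkcq is shown with them as that of the one gene called. Sequences are from RefSeq on GRCm38.p6, 5′ to 3′ on the strand of the gene, at chr9:44980432-44980681 (minus strand) for Cd3g, chr9:44981536-44981785 (plus) for Cd3d, chr9:45009612-45009861 (minus) for Cd3e and chr2:11172132-11172381 (plus) for Prkcq. Capitals mark GGAA and its reverse complement TTCC, the core bound by ETS factors such as ETS1, which T cells express.
Cd3g: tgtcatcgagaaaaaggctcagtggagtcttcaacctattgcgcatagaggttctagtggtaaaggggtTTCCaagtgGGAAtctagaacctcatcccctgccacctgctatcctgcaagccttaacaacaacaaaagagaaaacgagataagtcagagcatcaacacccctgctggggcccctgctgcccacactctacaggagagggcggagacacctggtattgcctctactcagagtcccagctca
Cd3d: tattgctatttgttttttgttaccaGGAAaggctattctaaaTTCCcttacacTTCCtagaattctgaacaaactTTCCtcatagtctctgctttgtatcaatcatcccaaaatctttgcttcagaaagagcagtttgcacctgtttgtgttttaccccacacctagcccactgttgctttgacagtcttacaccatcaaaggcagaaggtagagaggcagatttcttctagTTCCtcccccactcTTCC
Cd3e: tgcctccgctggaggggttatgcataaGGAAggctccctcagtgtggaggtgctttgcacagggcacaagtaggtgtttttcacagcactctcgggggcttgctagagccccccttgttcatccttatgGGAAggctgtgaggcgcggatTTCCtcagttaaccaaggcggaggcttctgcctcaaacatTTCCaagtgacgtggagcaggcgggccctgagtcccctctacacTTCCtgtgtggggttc
Prkcq: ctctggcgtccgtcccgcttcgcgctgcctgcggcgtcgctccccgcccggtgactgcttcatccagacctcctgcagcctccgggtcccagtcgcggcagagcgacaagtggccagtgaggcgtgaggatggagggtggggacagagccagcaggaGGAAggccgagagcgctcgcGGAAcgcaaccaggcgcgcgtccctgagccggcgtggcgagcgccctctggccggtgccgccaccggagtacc

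The starts of Cd3g and Cd3d were 1355 bases apart on opposite strands, so that both windows lie in the stretch between the genes, and the start of Cd3e was 27841 bases from that of Cd3d. GGAA or TTCC occurred 2 times in the Cd3g window, 6 times in that of Cd3d, 5 times in that of Cd3e and 2 times in that of Prkcq, and at least once in 93.4% of 32851 RefSeq windows of this length. The E-box CACCTG, searched on both strands, occurred 2 times for Cd3g and 1 time for Cd3d and was in 17.2% of windows. TATAAA, the TATA box, was in 12.4% of windows and in none of the 4. Prkcq stood apart in base composition, with 72.4% G and C and 30 CpG sites, where the median window had 52.4% and 6, and 93.6% of windows had a lower G and C content. Its window lies within Prkcq as GENCODE M21 draws it for the counts, since that annotation starts the gene at 11172108, before the RefSeq start, and the end of the Cd3e window nearest the gene lies within Cd3e in the same way. The windows of Cd3g, Cd3d and Cd3e held 51.6%, 41.2% and 57.2%. RefSeq windows matched 9 of the 10 genes, Cd4 being the one without.

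Of the CD3 chains, Cd3g (ENSMUSG00000002033, chromosome 9, 44969572 to 44980431, GRCm38) was the most evenly read. Its values were 888, 663 and 607 CPM in skin and 1209, 1132 and 1189 CPM in SDLN (libraries in the order A, B, C here and below), which gave 719 ± 149 against 1176 ± 40.1 CPM (mean ± SD, n = 3 each). Every skin value lay under every SDLN value, with skin A, the shallowest, the highest of the skin libraries. The log2 fold change of skin over SDLN was -0.77 (SE 0.274), and the gene was not called (edgeR quasi-likelihood test, adjusted p = 0.0673).

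Cd3d (ENSMUSG00000032094, chromosome 9, 44981786 to 44987339), whose product pairs with CD3 epsilon, was at 198, 355 and 276 CPM in skin and 848, 677 and 926 CPM in SDLN. Its groups did not overlap either, at 276 ± 78.4 against 817 ± 127 CPM. The log2 fold change was -1.53 (SE 0.526, adjusted p = 0.0602 by edgeR), close to but over the threshold of 0.05. Without skin A the adjusted p was 0.0118 for Cd3d and 0.0130 for Cd3g, against 0.000259 to 0.286 and 1.33e-06 to 0.479 over all 16 alternatives.

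Cd3e (ENSMUSG00000032093, chromosome 9, 44998740 to 45009627) encodes the chain that pairs with both CD3 delta and CD3 gamma and without which the complex is not assembled. It had 0 counts in skin A, 1757 in B and 2646 in C, or 0, 150 and 293 CPM, and was at 882, 1063 and 578 CPM in SDLN. Every skin library was below every SDLN library, and the skin libraries disagreed among themselves, from none to nearly 300 CPM. The log2 fold change of -2.25 had an SE of 2.09 and was not called (edgeR adjusted p = 0.551). Without skin A, it was -1.91 with an adjusted p of 0.0374 by edgeR, and without skin C -3.55 with 0.370, in a range of 0.0374 to 0.754 over its 15 alternatives.

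Cd247 (ENSMUSG00000005763, chromosome 1, 165788681 to 165877277) encodes the zeta chain, which adds most of the activation motifs to the complex. It was at 327, 230 and 126 CPM in skin and 357, 308 and 445 CPM in SDLN. Skin A reached into the SDLN range, so that the groups overlapped, and the log2 fold change of -0.84 (SE 0.550) was not called (edgeR adjusted p = 0.336). Of its exon bases, 3007 (56.4%) are shared with Pou2f1 on the opposite strand. Without skin A the log2 fold change was -1.07 and without skin C -0.76 (adjusted p = 0.0938 and 0.266 by edgeR). Whether counting used strand is not given, nor how reads over the shared bases were counted. Pou2f1 itself had 0 counts in all skin libraries and 2738, 1847 and 908 counts in SDLN. The level of Cd247, in CPM and per exon length, is therefore uncertain in both groups.

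Summed over the 4 chains, the CD3 genes gave 1412, 1397 and 1301 CPM in skin and 3296, 3181 and 3138 CPM in SDLN. The sum varied little within a group, 1370 ± 60.2 against 3205 ± 82.0 CPM, although its make-up changed from one skin library to the next. Per exon length (RPKM over the union of exons), Cd3e made 0%, 7.67% and 16.6% of the CD3 sum in skin, where it made 19.3%, 25.1% and 12.9% in SDLN. Cd3g made 61.4%, 42.4% and 42.9% in skin, all above the 33.0% to 33.4% of the SDLN libraries. The share of Cd3d was 24.7% to 40.9% in skin and 36.0% to 46.4% in SDLN, and that of Cd247 was 5.44% to 13.9% and 5.58% to 7.60%, so both overlapped. With the length of the principal transcript in place of the exon union, a choice made after seeing the data, Cd3g made 57.0% to 72.9% in skin and 45.3% to 48.4% in SDLN. The share of Cd3d then fell to 10.3% to 19.8% in skin and 17.2% to 23.8% in SDLN. Cd3e made 0% to 19.2% and 16.4% to 29.8%, and Cd247 7.39% to 16.8% and 7.74% to 11.4%.

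**Figure D2:**
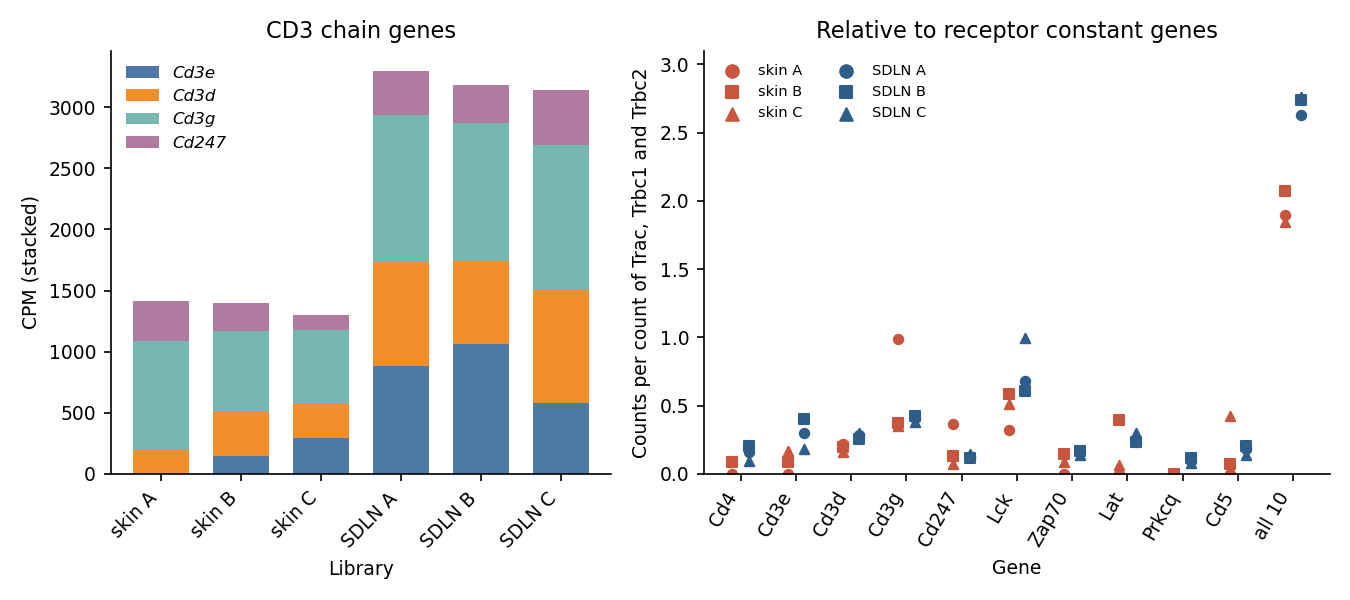
Left, CPM of the 4 CD3 chain genes stacked for each library (x axis). The stacks of the 3 skin libraries reach 1301 to 1412 CPM and those of the 3 SDLN libraries 3138 to 3296 CPM, with no Cd3e in skin A. Right, counts of each gene, and of all 10 together, per count of Trac, Trbc1 and Trbc2 in the same library (y axis), with red points for skin, blue for SDLN and a shape for each letter. Cd3g and Cd247 of skin A lie far above the rest, and all 10 together lie lower in skin.

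CD4 is the co-receptor that the cells were sorted on, and its transcript was nearly absent from 2 of the 3 skin libraries. Cd4 (ENSMUSG00000023274, chromosome 6, 124864692 to 124888221) had 0, 1861 and 2 counts in skin against 54756, 39115 and 14288 in SDLN, or 0, 158 and 0.221 CPM against 471, 537 and 302 CPM. The groups did not overlap, but skin B stood alone. The log2 fold change of -2.97 (SE 2.63) was not called (edgeR adjusted p = 0.523). Leaving out skin B moved it to -11.51 with an adjusted p of 0.00725, a fit against 2 libraries at or under the floor, and its 15 alternatives ran from 0.00725 to 0.743. Of the other genes of the gate, Foxp3 was over the floor in the same single skin library and Ptprc in every skin library.

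The genes whose levels followed Cd4 most closely over the 6 libraries were Cyth4, Uba1 and Traf3ip3, by the root mean square difference of log2(CPM + 1) relative to the SDLN mean of each gene (0.206, 0.306 and 0.310). Cyth4 was at 0, 157 and 0 CPM in skin. The nearest of the other 9 genes was Lat, at 2.47. For Cd3g the nearest was Cnbp, at 752, 713 and 591 CPM in skin and 1136, 1095 and 1127 CPM in SDLN (difference 0.101), followed by Mn1 and Gm11687, both low in all libraries (at most 0.742 CPM for Mn1), and among the 10 by Cd247 (0.298).

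Lck (ENSMUSG00000000409, chromosome 4, 129548344 to 129573641) was the kinase with the highest level per exon length in SDLN. It was at 291, 1042 and 879 CPM in skin and 1997, 1606 and 3106 CPM in SDLN, with no overlap and the lowest value in skin A. The log2 fold change was -1.51 (SE 0.704, edgeR adjusted p = 0.159). Without skin A the adjusted p was 0.0360 by edgeR, in a range of 0.0261 to 0.545 over 16 alternatives.

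Zap70 (ENSMUSG00000026117, chromosome 1, 36761798 to 36782818), the kinase that docks on the phosphorylated chains, had 0, 3080 and 1402 counts in skin, or 0, 262 and 155 CPM. In SDLN it was at 469, 454 and 438 CPM, the narrowest spread of the 3 kinases among the 10 genes (454 ± 15.5 CPM). Skin lay below SDLN in every library, and the log2 fold change of -1.54 had an SE of 2.04 (edgeR adjusted p = 0.725). Without skin A it was called as well (adjusted p = 0.0483 by edgeR, range over 15 alternatives 0.0483 to 0.884).

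Lat (ENSMUSG00000030742, chromosome 7, 126363824 to 126369570), the scaffold downstream of ZAP-70, was uneven in skin. It was at 0.267, 699 and 116 CPM in skin and 681, 627 and 941 CPM in SDLN, so that skin B lay within the SDLN range, skin C was lower and skin A had 1 count. The log2 fold change was -1.38 (SE 1.91, edgeR adjusted p = 0.741). It was -0.92 without skin A, -3.39 without skin B and -1.16 without skin C, and none of these was called (edgeR adjusted p = 0.412, 0.315 and 0.765).

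Prkcq (ENSMUSG00000026778, chromosome 2, 11172108 to 11301222) gave the widest gap. It had 0, 2 and 1 counts in skin, where SDLN had 32916, 22865 and 12286, which was 283, 314 and 260 CPM there. Pooled over libraries, 0.122 CPM in skin (95% exact interval 0.0252 to 0.357) stood against 288 CPM in SDLN, a ratio of 2356 with an interval of 806 to 11423. These intervals cover counting error only. The gene was called higher in SDLN (edgeR adjusted p = 0.00356). Its fitted log2 fold change of -11.28 (SE 1.66) depends on the prior count and is no bound. The call held in all 15 alternatives that tested the gene, with adjusted p from 6.14e-26 to 0.0192. When every library was drawn down to the 3748669 counts of skin A, Prkcq still had 1041, 1133 and 953 counts in SDLN A, B and C.

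Cd5 (ENSMUSG00000024669, chromosome 19, 10717116 to 10739002), the inhibitory receptor whose level tracks the strength of TCR signals in T cells, was uneven in skin. It was at 0, 128 and 738 CPM in skin and 542, 552 and 426 CPM in SDLN. Skin C was above every SDLN library and skin A had no counts, so the groups overlapped on both sides, and the log2 fold change of -0.51 (SE 2.16) was far from the threshold (edgeR adjusted p = 0.943). Without skin C it was -3.04 (edgeR adjusted p = 0.426), and without skin A -0.18 (0.900).

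**Figure D3:**
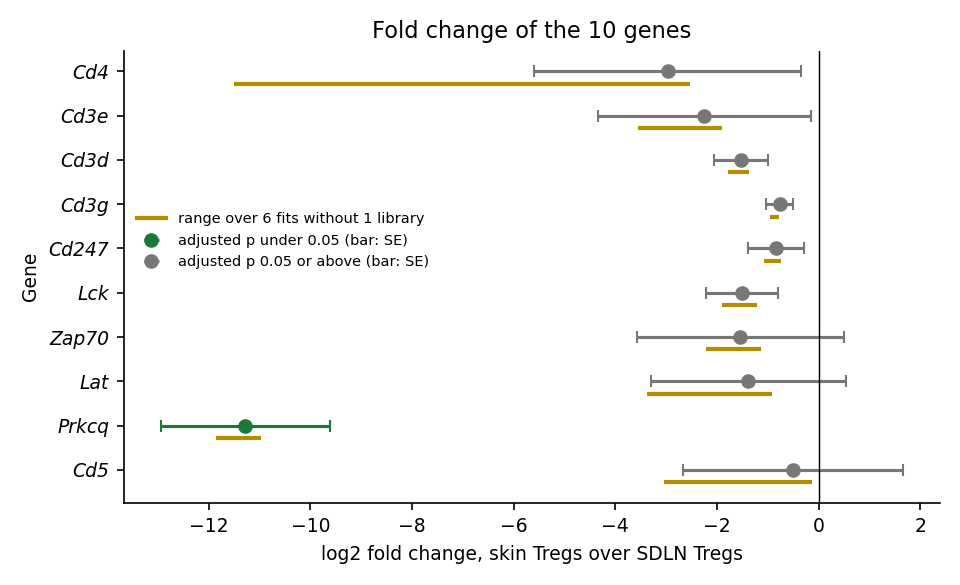
The log2 fold change of skin over SDLN Tregs (x axis) for each gene (y axis), with bars of 1 SE from the edgeR fit and, in yellow, the range of the 6 fits that each leave out 1 library. Prkcq (green) is at -11.28 and was called, and the other 9 (grey) lie between -2.97 and -0.51, on TMM scaling.

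Across the 10 genes, 1 was called higher in SDLN and 0 higher in skin, and the others did not pass the edgeR test. Unadjusted edgeR p was under 0.05 for 3 of the 10, none of them higher in skin. Over the 13572 genes tested it was under 0.05 for 6528, in either direction. Neither DESeq2 nor limma voom called any of the 10 higher in skin. The fitted change was negative for 10 of 10 genes and for 9682 of the 13572, with medians of -1.52 and -2.21. The number called was 6 without skin A (Cd3e, Cd3d, Cd3g, Lck, Zap70 and Prkcq) and 2 without skin B (Cd4 and Prkcq) or without skin C (Cd3g and Prkcq). All genes were called higher in SDLN at 42.5%, 48.9% and 46.5% in these 3 fits, so that 6 of 10 was nearer the whole table than 1 or 2 of 10. The skin values were all below the SDLN values for 7 of the 10, namely Cd4, Cd3e, Cd3d, Cd3g, Lck, Zap70 and Prkcq, against 53.6% of all genes, and for none did they lie above, against 2.39%. The share not overlapping was near that of all genes. Summed, the 10 genes were at 1704, 3687 and 3190 CPM in skin and 7741, 7272 and 8611 CPM in SDLN, a mean ratio of 0.363.

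Over the floor of 3 counts were 4, 9 and 8 of the 10 genes in skin A, B and C and 10 of 10 in each SDLN library. Drawn down to one library total, the numbers stayed at 4, 9 and 8 in skin and 10 in SDLN. Among the 485 genes at 300 to 1000 CPM in SDLN, the range of Cd4, Cd3e, Cd3d, Cd247, Zap70, Lat and Cd5, 70.5%, 96.5% and 94.0% were over the floor in skin A, B and C. Of these 7, only Cd3d and Cd247 were over the floor in skin A. At 1000 to 3000 CPM, the range of Cd3g and Lck, 96.3% of 81 genes were over it in skin A. The pattern of Cd3e, Zap70, Lat and Cd5 (B and C, not A) was that of 24.5% of these 485 genes, and that of Cd4 (B alone) of 2.68%. Of the 1760 genes at 100 to 300 CPM in SDLN, the range of Prkcq, 8.47% were at or under the floor in all 3 skin libraries.

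Compared per exon length in SDLN, Lck had the highest level of the 10 (763 ± 266 RPKM), followed by Cd3d (450 ± 70.1), Cd3g (360 ± 12.3), Lat (271 ± 60.7), Cd3e (206 ± 60.1), Zap70 (152 ± 5.19), Cd4 (108 ± 30.05), Cd5 (103 ± 14.2), Cd247 (69.5 ± 13.0) and Prkcq (40.4 ± 3.83 RPKM). The library ranges of Lat and Cd3e, of Cd3e and Zap70, and of Cd4 and Cd5 overlapped, and those of the other neighbours in this order did not. With principal transcript lengths Cd3g came first (1150 ± 39.2 RPKM) and Lck second (1023 ± 356 RPKM), with overlapping ranges. Lat (607 ± 136 RPKM), Cd3e (575 ± 168), Cd3d (505 ± 78.7), Cd5, Cd247, Zap70 and Cd4 followed in that order, and Prkcq remained the lowest. The ranges of Lat, Cd3e and Cd3d overlapped.

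The CD3 chains are made to pair with the TCR alpha and beta chains, so the 10 genes were also set against the constant genes Trac, Trbc1 and Trbc2, a comparison added after seeing the data. These summed to 898, 1780 and 1725 CPM in skin and 2940, 2652 and 3116 CPM in SDLN. Trbc2 was called higher in SDLN, at 471 against 1011 CPM (log2 fold change -1.16, SE 0.333, edgeR adjusted p = 0.0307), though 8 of 16 alternatives lost the call, among them each fit without an SDLN library (adjusted p 0.0610 to 0.152). Trac, at 711 against 1292 CPM (adjusted p = 0.607), and Trbc1 (adjusted p = 0.385) were not called. Trbc1 and Trbc2 are near-identical copies, so the split of reads between them is uncertain.

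Per count of the 3 constant genes, the 10 genes together gave 1.90, 2.07 and 1.85 counts in skin and 2.63, 2.74 and 2.76 in SDLN. On this scale the gap was smaller than in CPM (a mean ratio of 0.715), the libraries of a group lay close together, and the groups did not overlap. Cd3d was at 0.221, 0.199 and 0.160 in skin and 0.289, 0.255 and 0.297 in SDLN, and Lck at 0.324, 0.586 and 0.510 against 0.679, 0.606 and 0.997. Both were still lower in every skin library. Cd3g was at 0.988, 0.372 and 0.352 in skin and 0.411, 0.427 and 0.381 in SDLN, so that its mean ratio turned to 1.40 through skin A while skin B and C lay just below SDLN. For Cd247 the ratio turned to 1.49, at 0.364, 0.129 and 0.0728 against 0.121, 0.116 and 0.143, with skin A above SDLN, skin B within its range and skin C below. The CD3 chains together overlapped, at 0.754 to 1.57 in skin and 1.01 to 1.20 in SDLN.

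Of 56 other genes of the TCR pathway, 55 were tested, Shb being at 0 in every library. The edgeR test called 15 higher in SDLN and 0 higher in skin, against 45.3% and 1.04% of all genes tested, so the list had fewer calls for its size than the whole table. Its median log2 fold change was -1.19, with 43 below 0, and that of all genes was -2.21. At an unadjusted edgeR p under 0.05 the counts were also 15 and 0, against 6528 of all 13572 genes in either direction. The DESeq2 and limma voom fits called none of the list higher in skin either. Of the 15, 12 were at or under the floor in all skin libraries, as Prkcq was and as were 94.4% of all genes called higher in SDLN. Without skin C the number called higher in SDLN was 23, against 46.5% of all genes in that fit. The skin values were all below the SDLN values for 27 of the 56 genes and all above for 1, near the 53.6% and 2.39% of all genes.

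The list of kinases and phosphatases that act at the receptor, which also holds the adaptor gene Pag1, had 3 of 9 genes called higher in SDLN, the kinases Tec and Csk and Pag1. Csk, whose product holds Lck inactive, and Pag1, whose product brings CSK to the membrane, stayed at the floor throughout skin, Csk at 0, 0.0852 and 0.332 CPM against 167, 143 and 126 CPM in SDLN. The call of Csk was lost in 1 of 15 alternatives, without SDLN A (edgeR adjusted p = 0.0543). Ptprc, whose product CD45 removes the inhibitory phosphate from Lck, was at 1944 against 2186 CPM (edgeR log2 fold change -0.04, adjusted p = 0.984). Ptpn6, the phosphatase SHP-1, was at 0, 0 and 17.0 CPM in skin and 384, 356 and 377 CPM in SDLN (adjusted p = 0.201 by edgeR). It was called higher in SDLN in 3 of 15 alternatives, namely DESeq2, limma voom and the fit without skin C, where no skin count was left (adjusted p 0.00418 to 0.331 over the 15).

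Adaptors and scaffolds had 5 of 14 called higher in SDLN, Themis, Trat1, Lax1, Grap2 and Nck2. The call of Nck2 held in 9 of the 14 alternatives that tested it (edgeR adjusted p up to 0.369, lost among others without skin A, skin B or SDLN C) and that of Lax1 in 12 of 15 (up to 0.0602, lost without any 1 SDLN library). Themis and Trat1 had no counts in skin, and Grap2, which links LAT to SLP-76, was at 0.267, 0 and 0.553 CPM against 14.3 to 25.4 CPM. The call of Grap2 held in 14 of 15 alternatives and was lost under upper quartile scaling (edgeR adjusted p = 0.302). Lcp2, which encodes SLP-76, was at 0, 649 and 253 CPM in skin and 676, 729 and 848 CPM in SDLN, the same order of skin libraries as Lat (edgeR adjusted p = 0.819). Sh2d2a, an adaptor that binds Lck, was at 0, 294 and 295 CPM in skin and 808, 724 and 1007 CPM in SDLN (adjusted p = 0.633 by edgeR), and was called without skin A (0.00870) but in no other of its 15 alternatives (up to 0.813).

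Co-receptors gave 3 of 4 called higher in SDLN. Cd8a and Cd8b1, the co-receptor chains of CD8 T cells, had no counts in skin and 3.91 to 11.8 CPM in SDLN. Cd6, a scavenger receptor related to Cd5, was the one called pathway gene that every skin library read above the floor, at 449, 347 and 191 CPM in skin and 824, 750 and 661 CPM in SDLN (log2 fold change -1.29, SE 0.390, edgeR adjusted p = 0.0376). Its call was kept in 5 of 16 alternatives (adjusted p 0.000974 to 0.309) and lost, among others, without skin B (0.0569) and without SDLN A, B or C (0.236, 0.162 and 0.0757). Cd2, an adhesion receptor of T and natural killer cells, was at 1593, 1338 and 1438 CPM in skin and 1484, 1298 and 1925 CPM in SDLN, so that the groups overlapped (log2 fold change -0.14, adjusted p = 0.876 by edgeR).

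Downstream effectors had 1 of 17 called higher in SDLN, Ppp3cb, a catalytic subunit of calcineurin. As a list they summed to 1960, 1923 and 2161 CPM in skin and 2152, 2443 and 1406 CPM in SDLN, with a median log2 fold change of 0.00. Nfatc1, the calcium-activated transcription factor, was at 0, 171 and 113 CPM in skin and 407, 479 and 169 CPM in SDLN (edgeR adjusted p = 0.689). Rasgrp1, which opens the Ras branch, was at 113, 137 and 599 CPM in skin and 325, 398 and 180 CPM in SDLN (edgeR adjusted p = 0.971).

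The list of negative regulators, which also holds the signalling adaptor gene Sh2d1a, had 3 of 11 called higher in SDLN, Dok1, Cblb and Sh2d1a. Sh2d1a, the adaptor SAP that couples SLAM receptors to Fyn, had no counts in skin and was at 134, 132 and 139 CPM in SDLN. Its call held in 12 of 15 alternatives and was lost without any 1 SDLN library (edgeR adjusted p up to 0.0655). Dgka, the kinase that removes diacylglycerol, was at 0, 54.2 and 208 CPM in skin and 450, 525 and 352 CPM in SDLN (edgeR adjusted p = 0.608). Dok2, a docking protein that limits Ras, had the opposite order, at 469, 605 and 779 CPM in skin and 377, 272 and 552 CPM in SDLN, with overlap, and was not called (log2 fold change 0.67, from 0.16 without skin C to 0.89 without SDLN C, edgeR adjusted p = 0.519).

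**Figure D4:**
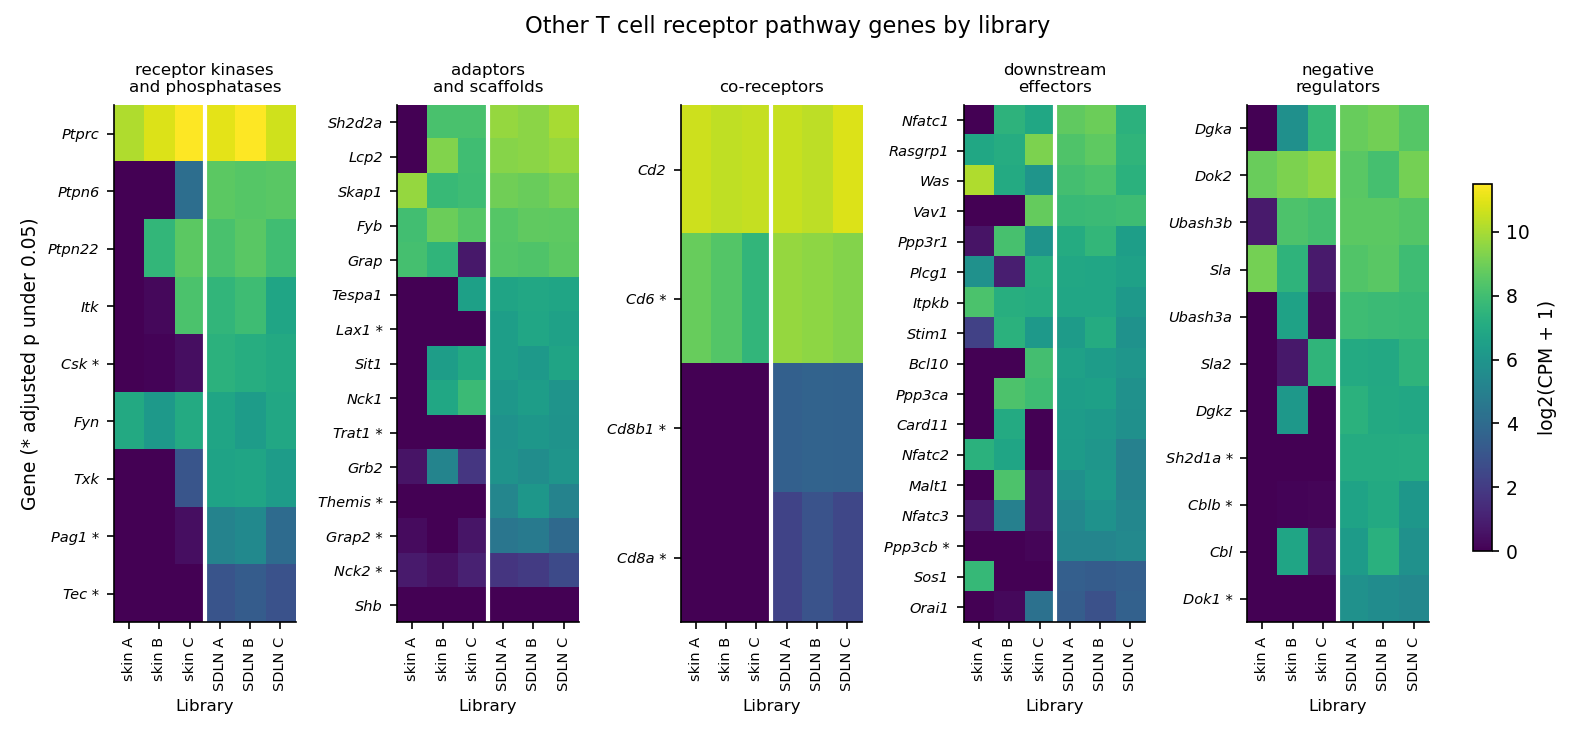
The 56 other TCR pathway genes (rows, by role and by SDLN level) in each library (columns), with the colour giving log2(CPM + 1) and an asterisk marking an edgeR adjusted p under 0.05. Dark cells in the 3 skin columns mark genes with few or no counts there, among them Themis, Trat1, Cd8a, Cd8b1 and Sh2d1a without any. Ptprc, Cd2 and Cd6 are bright in all 6 columns.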

How the data were processed

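Bulk RNA-seq libraries of Tregs from skin (n = 3) and SDLN (n = 3) were compared. Per the submitters' notes and the methods of the study, the authors trimmed reads with Trimmomatic 0.36, mapped them to GRCm38 with STAR 2.5.2b and deposited unique raw counts per gene over exons from featureCounts (Subread 1.5.2). The strand setting is not given in the sources used here. Totals were 3748669 to 11741784 counts in skin and 47243498 to 116158706 in SDLN, so low levels are less precise in skin, and reads without molecular identifiers are not independent molecules.

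GENCODE M21 named 49056 of 49315 genes. Counts were tested with the quasi-likelihood test of edgeR 4.0.16 (filterByExpr, TMM, tissue as the only term) in R 4.3.3 over 13572 genes, with Benjamini-Hochberg adjustment and a threshold of 0.05; scripts were tested on simulated data. CPM used library totals and RPKM exon union lengths. Alternatives were DESeq2 1.42.0, limma 3.58.1 (voom), other scalings and filters, an equal library total and leaving out each library; ranges over alternatives leave out a fit with library letters as a block. The common dispersion was 2.04, so a gene not called is not shown to be equal. The 10 genes were all described. From the pathway list, those named were the called genes with more than 3 counts in all skin libraries (Cd6) and the top 2 of each role by SDLN mean CPM. Other called genes were named to make up a count, after their values were seen. Members and lists were chosen with earlier results of these data known. P-values measure the spread between pooled samples.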

Additional observations from a re-analysis of the deposited data

How the results depend on the processing

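The 10 genes gave 1 call higher in SDLN, against 2 with DESeq2 size factors, library totals alone or limma voom, 3 with TMMwsp or at an equal library total and 4 with DESeq2. With at least 10 counts in every library, which leaves 4 of the 10 and 12 pathway genes and drops Prkcq, both had 0 calls by edgeR (3 and 1 at an unadjusted p under 0.05), where 90 of 1396 genes were called in either direction. Leaving out 1 library gave 1 to 6 calls (6 without skin A, 2 without skin B or C), and 11 to 23 calls among the 55 pathway genes tested, where all libraries gave 15 (23 without skin C). Higher in skin were 0 to 1 pathway genes, Ppp3ca without skin A (log2 fold change 1.82, adjusted p = 0.0385 by edgeR). Under upper quartile scaling, log2 fold changes reversed to 4.39 for Cd3d, 6.02 for Cd3g, 6.23 for Cd247, 3.51 for Lck and 0.24 for Cd5, and to 5.70 for Cd6 and 5.54 for Trbc2, none called, while the median over the 1623 genes above the floor in all 6 libraries moved from 0.28 to 6.82. Per count of the TCR constant genes, Cd3g and Cd247 reversed to mean ratios of 1.40 and 1.49. Cd4 was called with limma voom (log2 fold change -8.57, adjusted p = 0.0160), and the cause was not tested. Prkcq was called wherever it was tested. Both groups carry the letters A, B and C, which nothing ties to the replicate numbers of the labels. Each pool of mice may have given a sample of both tissues, but no source says that a shared letter marks one. Libraries with the same letter did not deviate together (correlation of deviations from group means -0.0100 to 0.0914), and of the skin libraries only skin C correlated best with its own letter. A fit with the letter as a replicate block, added after seeing the data, called 4 of the 10 genes (Cd4, Lck, Lat and Prkcq, the last at an adjusted p of 0.0440 by edgeR) and 10 pathway genes higher in SDLN, as it did 41.5% of all genes. The floor of 3 counts stood highest in skin A, at 0.800 CPM, and the cause of the missing genes there was not tested.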
